A study of Homo sapiens with 20 samples.

Results

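The ATP-binding cassette (ABC) transporter family was described here across siRNA treatments of MII cells, a human mammary epithelial line. Its members were chosen by symbol: genes named ABC, followed by a letter from A to G and a number, without pseudogenes. Of 19775 genes with a named probe set on the array, 41 were members. The subfamilies held 11 members (A), 8 (B), 10 (C), 3 (D), 1 (E), 3 (F) and 5 (G). A gene with several probe sets, which was the case for 28 members, was represented by the probe set selected on the highest mean over all 20 arrays, whatever the treatment. The family was picked for study because ABCA8 stood out in these same arrays. ABCA8 is therefore given below by its values alone, without a test between groups, and is left out of every count of called members. The other 40 members were tested.

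ABC proteins bind and hydrolyse ATP in a pair of conserved cassettes, and most couple this to moving a substrate across a membrane. Subfamilies A and G mainly carry lipids and sterols, B and C hold drug pumps, peptide carriers, mitochondrial transporters and exporters of conjugated organic anions, and D serves the peroxisome and lysosome. ABCE1 and the F subfamily have the cassettes but no membrane domain, and they act on ribosomes and in translation. In mammary epithelium the family is known mostly for drug efflux and for lipid handling.

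MII, also called MCF10-T1k, is a RAS-transformed line from the MCF10 series of mammary epithelial cells, and it was grown with serum, EGF, insulin, cholera toxin and hydrocortisone. By lipofection the cells received siRNA against GFP (siGFP, the control), APC (siAPC), APC and TAZ (siAPC/siTAZ), beta-catenin (sibcat) or beta-catenin and TAZ (sibcat/siTAZ), with 4 replicates, A to D, in each of the 5 groups. The APC protein holds together the machinery that destroys beta-catenin, and TAZ, product of WWTR1, is a coactivator that works with TEAD factors. The series asks about TAZ as a mediator of Wnt signalling, and no group received TAZ siRNA alone. MII is 1 transformed line, and the siRNA sequences and the time to harvest are not stated in the sources used here. The labels call the replicates biological but do not say whether they were separate cultures or transfections, so a p-value here speaks only of the spread among these samples, part of which may be technical.

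The promoters of the members that rose in both TAZ siRNA comparisons below are shown first, so that their sequence can be set beside their values. Rising in both served only to choose these windows, and the share of all genes that did so was not computed. Of the members chosen, ABCC1 and ABCG1 had no entry in the RefSeq promoter table, and neither had ABCA8. Each window runs from 250 bases before to 50 bases after an annotated start, 5′ to 3′ on the gene's strand, in build GRCh38.p14. Capitals mark a TEAD core motif (CATTCC), a TCF core motif (CTTTGA) or an AP-1 motif (TGANTCA), searched on both strands, with no overlap between matches in these windows. The windows are ABCA6 at chr17:69141846-69142145 (minus strand), the upstream and the downstream start of ABCA12 at chr2:215138577-215138876 and chr2:215032037-215032336 (minus), ABCB6 at chr2:219218909-219219208 (minus), ABCC2 at chr10:99782390-99782689 (plus) and ABCC5 at chr3:184017835-184018134 (minus).
ABCA6: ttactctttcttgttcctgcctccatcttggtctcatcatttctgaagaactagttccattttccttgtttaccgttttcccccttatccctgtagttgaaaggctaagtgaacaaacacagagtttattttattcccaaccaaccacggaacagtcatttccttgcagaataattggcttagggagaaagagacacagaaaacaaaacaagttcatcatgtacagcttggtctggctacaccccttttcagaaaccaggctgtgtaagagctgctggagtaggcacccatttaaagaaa
ABCA12 upstream: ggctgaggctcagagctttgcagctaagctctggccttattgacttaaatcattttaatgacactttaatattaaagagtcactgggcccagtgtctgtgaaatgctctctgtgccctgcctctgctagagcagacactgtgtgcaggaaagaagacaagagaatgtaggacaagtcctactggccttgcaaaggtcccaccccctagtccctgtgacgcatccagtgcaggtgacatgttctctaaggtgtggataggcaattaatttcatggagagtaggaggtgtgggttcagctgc
ABCA12 downstream: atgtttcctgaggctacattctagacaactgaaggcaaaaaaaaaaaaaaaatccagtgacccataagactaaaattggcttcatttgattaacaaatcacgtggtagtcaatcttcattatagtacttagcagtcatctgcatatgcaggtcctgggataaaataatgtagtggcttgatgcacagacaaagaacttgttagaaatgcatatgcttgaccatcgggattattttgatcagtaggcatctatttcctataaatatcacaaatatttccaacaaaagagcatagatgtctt
ABCB6: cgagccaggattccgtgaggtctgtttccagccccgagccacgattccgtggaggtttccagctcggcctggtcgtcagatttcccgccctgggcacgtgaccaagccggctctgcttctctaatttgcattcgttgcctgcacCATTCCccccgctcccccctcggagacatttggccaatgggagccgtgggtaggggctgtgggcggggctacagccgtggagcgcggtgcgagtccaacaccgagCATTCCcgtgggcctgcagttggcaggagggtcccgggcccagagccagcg
ABCC2: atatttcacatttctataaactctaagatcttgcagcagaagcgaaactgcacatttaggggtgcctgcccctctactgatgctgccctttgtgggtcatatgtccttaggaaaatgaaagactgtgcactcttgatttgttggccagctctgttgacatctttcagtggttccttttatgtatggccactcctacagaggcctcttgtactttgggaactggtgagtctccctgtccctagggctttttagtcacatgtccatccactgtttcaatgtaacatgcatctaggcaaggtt
ABCC5: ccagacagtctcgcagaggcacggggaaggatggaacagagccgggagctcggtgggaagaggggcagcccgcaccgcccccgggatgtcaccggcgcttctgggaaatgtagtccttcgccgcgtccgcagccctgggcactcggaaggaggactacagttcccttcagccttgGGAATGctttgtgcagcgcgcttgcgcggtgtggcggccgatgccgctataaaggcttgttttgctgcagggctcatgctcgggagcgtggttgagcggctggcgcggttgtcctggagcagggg

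The ABCB6 window held 2 TEAD cores, at bases 145 to 150 and 250 to 255 of the window, and the ABCC5 window held 1, at bases 176 to 181. The windows of ABCA6, ABCA12 and ABCC2 held none of the 3 motifs. Of the 35116 windows in the table, 14% held a TEAD core, 12.9% a TCF core and 7.7% an AP-1 motif. The 33 members with an entry had 49 windows, of which 11 (22.4%) held a TEAD core, 6 (12.2%) a TCF core and 5 (10.2%) an AP-1 motif. Beside ABCB6 and ABCC5, TEAD cores lay in windows of ABCA9, ABCF1, ABCG2, ABCB1, ABCC12, ABCD2, ABCG5 and ABCG8. Of these, ABCB1, ABCC12, ABCD2, ABCG5 and ABCG8 were called in none of the comparisons below. Some windows overlap, as those of ABCG5 and ABCG8 do, so windows are not independent and their share is not a result. A match is a run of letters, not a measured binding site.

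Called means an adjusted p under 0.05, from limma fitted to all 19775 genes and adjusted over all of them. The arrays had like medians (5.07 to 5.11, log2), and their number limits the precision. APC fell by 0.88 (log2) in siAPC cells and CTNNB1, which encodes beta-catenin, fell by 1.33 in sibcat cells. WWTR1 fell by 2.67 and 2.21 when TAZ siRNA was added to siAPC and to sibcat, and it was already lower by 0.41 and 0.43 in the single depletions. CTNNB1 was lower by a further 1.41 in sibcat/siTAZ than in sibcat, so the contrast of those groups also differs in beta-catenin RNA. In the other background APC was lower by a further 0.46 (log2 difference -0.46, adjusted p = 5.14e-07) in siAPC/siTAZ than in siAPC, so that contrast also differs in APC RNA, and the test between the backgrounds carries both differences. CCN2, a TAZ-TEAD reporter, rose by 3.27 and 2.80 in the single depletions and fell by 6.76 and 7.35 with TAZ siRNA. AXIN2, a beta-catenin reporter, rose by 5.30 in siAPC cells and fell by 0.51 in sibcat cells, and it rose by 0.86 and 0.33 when TAZ siRNA was added to siAPC and to sibcat. The 6 measured of 8 mammary epithelial markers had group means of 8.50 to 13.09, all above the median of all values (5.09). Of these 6, 2 were higher and 4 lower in each single depletion, and with TAZ siRNA 1 was higher and 5 lower in siAPC cells and 1 was higher and 4 lower in sibcat cells. KRT8 and KRT18, the keratins of luminal cells, rose by 0.56 and 0.37 in siAPC cells and fell by 1.47 and 1.35 with TAZ siRNA there. KRT5, a basal keratin, rose by 0.80 and 0.76 with TAZ siRNA in siAPC and sibcat cells. KRT14, another basal keratin, went the other way in siAPC cells, with means of 9.035 in siAPC and 8.495 in siAPC/siTAZ cells. Its means were 8.675 in sibcat and 8.65 in sibcat/siTAZ cells. These markers moved in the same comparisons as the ABC genes described below, and their part in those results was not tested.

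Across the family, members were called about as often as other genes. In siAPC against siGFP, 17 of 40 members (42.5%) were called, 7 higher and 10 lower, beside 40.0% of all genes tested. In sibcat against siGFP the count was 13 (32.5%), 7 higher and 6 lower, beside 37.1%. Adding TAZ siRNA to siAPC gave 15 called members (37.5%), 10 higher and 5 lower, beside 43.5%. Adding it to sibcat gave 15 (37.5%), 11 higher and 4 lower, beside 31.7%. The combined depletions against siGFP gave 17 (42.5%) for siAPC/siTAZ beside 47.2%, and 19 (47.5%) for sibcat/siTAZ beside 44.9%. The siAPC and sibcat cells differed in 10 members (25.0%) beside 33.8%. The TAZ siRNA effect differed between the siAPC and sibcat backgrounds in 11 members (27.5%) beside 27.7%. None of these shares is a result about the family, since each lies near that of the array. By direction, 21.3% of all genes were higher and 18.7% lower in siAPC, 21.4% and 15.7% in sibcat, 20.7% and 22.8% on adding TAZ siRNA to siAPC, and 18.0% and 13.7% on adding it to sibcat. The counts in subfamilies and partner lists below stand beside these shares, and they are descriptions of few genes. Genes of higher signal were called more often, as given further below. An excess over these shares in a list of such genes is therefore not read as a result.

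**Figure D1:**
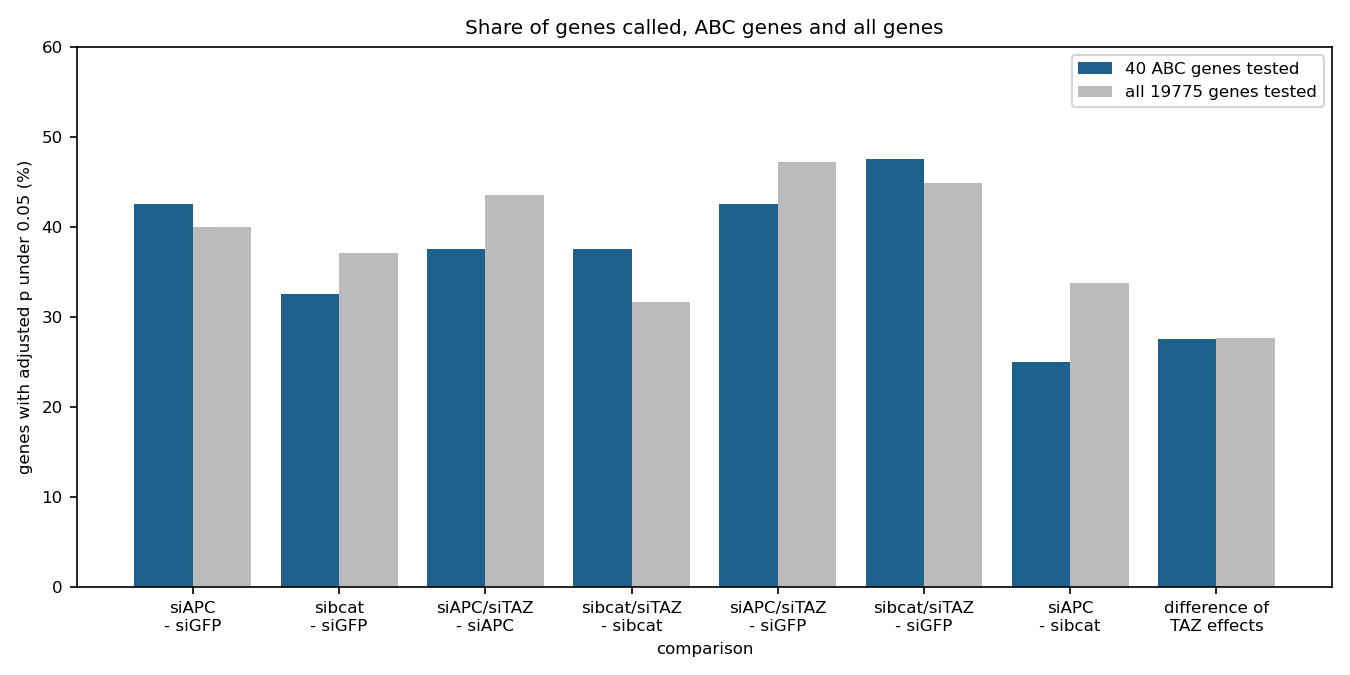
Share of genes called (adjusted p under 0.05, in percent, y axis) in each of 8 comparisons (x axis), for the 40 ABC genes tested (blue bars) and all 19775 genes tested (grey bars). The blue bars run from 25.0% to 47.5% and stand close to the grey ones, which run from 27.7% to 47.2%.

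The median log2 difference of the members was also near that of all genes: -0.04 beside 0.00 for siAPC, 0.00 beside 0.00 for sibcat, 0.04 beside -0.03 for TAZ siRNA added to siAPC, and 0.00 beside 0.01 for TAZ siRNA added to sibcat. Calls were fewer at low signal, among members and on the whole array alike. Of the 24 members with a mean at or above the median of all values, 16, 12, 14 and 13 were called in these 4 comparisons, and of the 16 tested members below it, 1, 1, 1 and 2. Over all genes the shares called were 56.9%, 53.5%, 61.5% and 45.8% at or above that median and 11.6%, 9.7%, 13.4% and 7.9% below it. The members are therefore described one by one, by subfamily. The comparisons share arrays (the siGFP arrays serve both single depletions, and each single depletion serves as the reference of its combination), so values are set side by side and no agreement between them is counted. In a bulk sample, fewer cells that express a gene and less RNA per cell cannot be told apart.

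**Figure D2:**
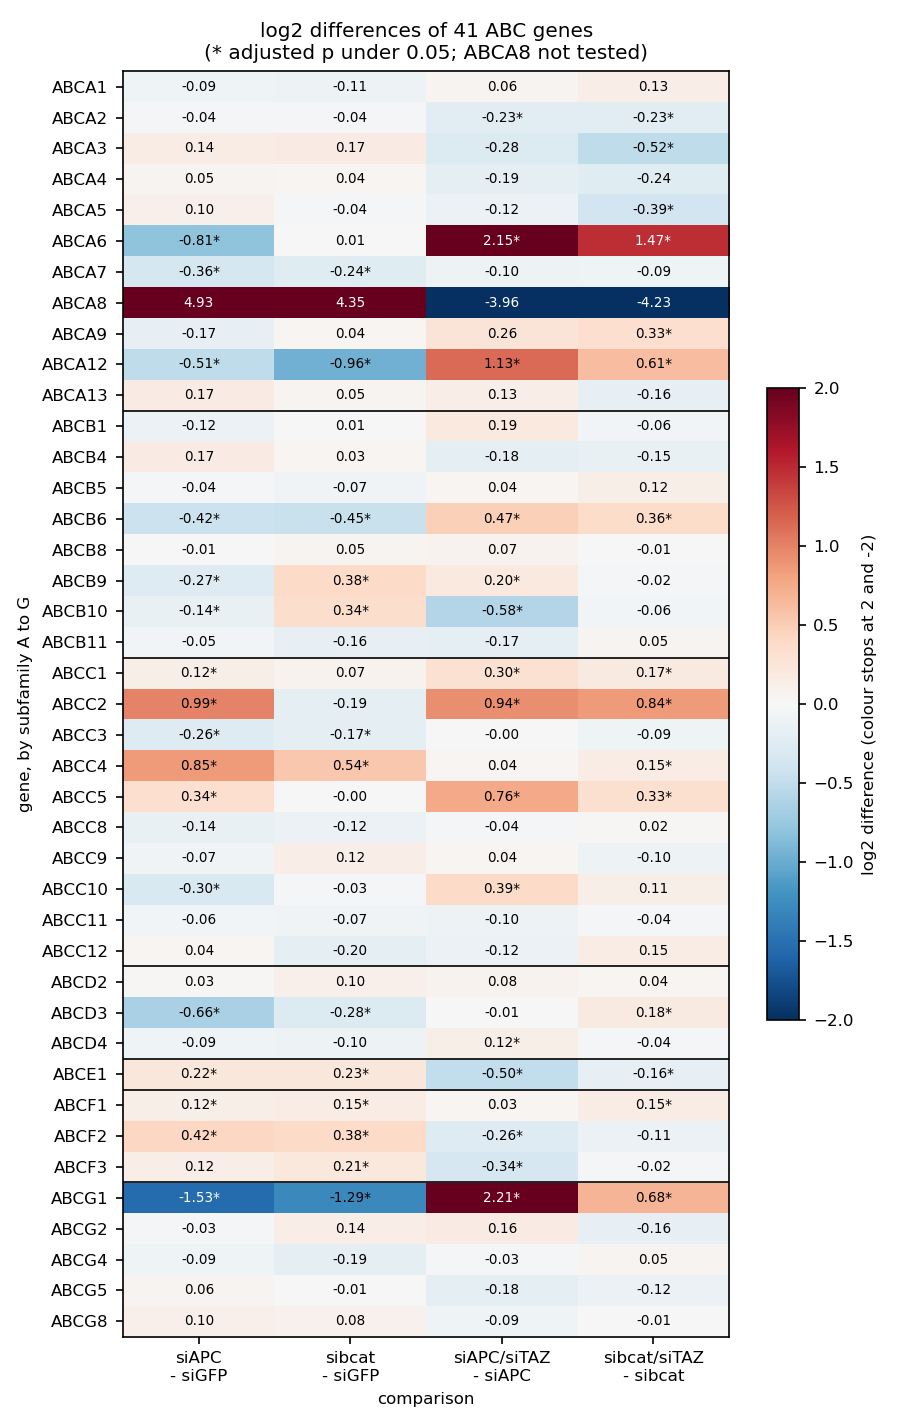
Mean log2 differences of the 41 ABC genes (rows, by subfamily A to G) in 4 comparisons (columns), as colour (red higher, blue lower, the scale stopping at 2 and -2) and as number; an asterisk marks an adjusted p under 0.05, and ABCA8 was not tested. The largest differences among the tested genes are those of ABCG1, ABCA6, ABCA12 and ABCC2, and most rows of low-signal genes have no asterisk.

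ABCA8, a transporter linked to sterol efflux, showed the values for which the family was picked. Replicates A to D read 2.78, 2.87, 2.87 and 2.83 (log2 signal) in siGFP cells, 7.70, 7.98, 7.86 and 7.54 in siAPC cells and 7.43, 7.18, 7.06 and 7.08 in sibcat cells. With TAZ siRNA the arrays read 3.78, 3.65, 4.18 and 3.63 in siAPC/siTAZ cells and 2.71, 3.00, 3.02 and 3.09 in sibcat/siTAZ cells. The single depletions stood apart from every other array, siAPC/siTAZ lay between them and the control, and sibcat/siTAZ overlapped the control. The means differed by 4.93 and 4.35 between the single depletions and siGFP, and by -3.96 and -4.23 when TAZ siRNA was added. Those are ratios of 30.5, 20.4, 15.6 and 18.8 between array signals, without a test. The siGFP, siAPC/siTAZ and sibcat/siTAZ means (2.84, 3.81 and 2.96) lie far below the median of all values (5.09) and were not shown to stand above background, so the ratios may understate the differences in RNA. The other pair of probe sets for ABCA8 had group means of only 2.95 to 3.31 and did not show this pattern, so the description rests on 1 probe set of 3.

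ABCA8 lies on chromosome 17 in a cluster in the order ABCA8, ABCA9, ABCA6, ABCA10, ABCA5, followed by MAP2K6; ABCA10 was not analysed here. ABCA6, a member of this cluster with little known of its substrate, moved in the other direction. In siGFP cells replicates A to D read 5.07, 5.19, 5.31 and 5.00, in siAPC cells 4.59, 4.56, 3.99 and 4.19, and in sibcat cells 5.16, 5.27, 5.11 and 5.06. The siAPC/siTAZ arrays read 6.47, 6.62, 6.48 and 6.38 and the sibcat/siTAZ arrays 6.72, 6.44, 6.82 and 6.5. Both TAZ siRNA groups lay above all other arrays, siAPC lay below all others, and sibcat overlapped the control. ABCA6 fell by 0.81 (SE 0.115, adjusted p = 8.28e-06) in siAPC cells and differed by 0.01 (adjusted p = 0.971) in sibcat cells. It rose by 2.15 (4.45-fold, adjusted p = 5.57e-12) when TAZ siRNA was added to siAPC and by 1.47 (2.77-fold, adjusted p = 3.65e-09) when it was added to sibcat.

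ABCA5 and ABCA9 were the other members of the cluster that were measured. ABCA5, a lysosomal and endosomal protein, read 7.16, 7.24, 7.11 and 6.97 in sibcat cells and 6.64, 6.71, 6.80 and 6.77 in sibcat/siTAZ cells, a fall of 0.39 (SE 0.065, adjusted p = 8.18e-05) without overlap. Its difference on adding TAZ siRNA to siAPC was -0.12 (adjusted p = 0.174). ABCA9, added here for its place in the cluster after its values were seen, lay between 3.14 and 4.09 on all 20 arrays, well below the median of all values. It was called once among the 4 main comparisons, at 0.33 (adjusted p = 0.0440) on adding TAZ siRNA to sibcat, with overlapping arrays. On adding TAZ siRNA to siAPC it differed by 0.26, without overlap but not called (adjusted p = 0.0933). In sibcat/siTAZ cells it was higher than in siGFP cells by 0.375 (adjusted p = 0.0162), without overlap. The other ABCA9 probe sets, of lower signal, also had higher means with TAZ siRNA in both backgrounds. Whether these calls hold when 1 array is left out was not checked. Of the list of 6 neighbouring genes outside the family, 5 were measured. FAM20A, WIPI1 and PRKAR1A, the protein-coding genes nearest ABCA8 on the side away from ABCA9, were not in the list. Calls were made for 3, 2, 3 and 3 of the 5 measured genes in the 4 comparisons, beside 40.0%, 37.1%, 43.5% and 31.7% of all genes. MAP2K6, a p38 MAP kinase kinase, had differences of -0.85, 0.17, 0.92 and 0.60, of which all but the second were called. KCNJ2, a potassium channel gene, was higher by 2.61 and 1.52 in the single depletions, higher by 0.90 with TAZ siRNA in siAPC cells and lower by 0.53 with it in sibcat cells. AMZ2, a metallopeptidase gene on the other side, changed by 0.20, 0.20, -0.16 and -0.19.

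**Figure D3:**
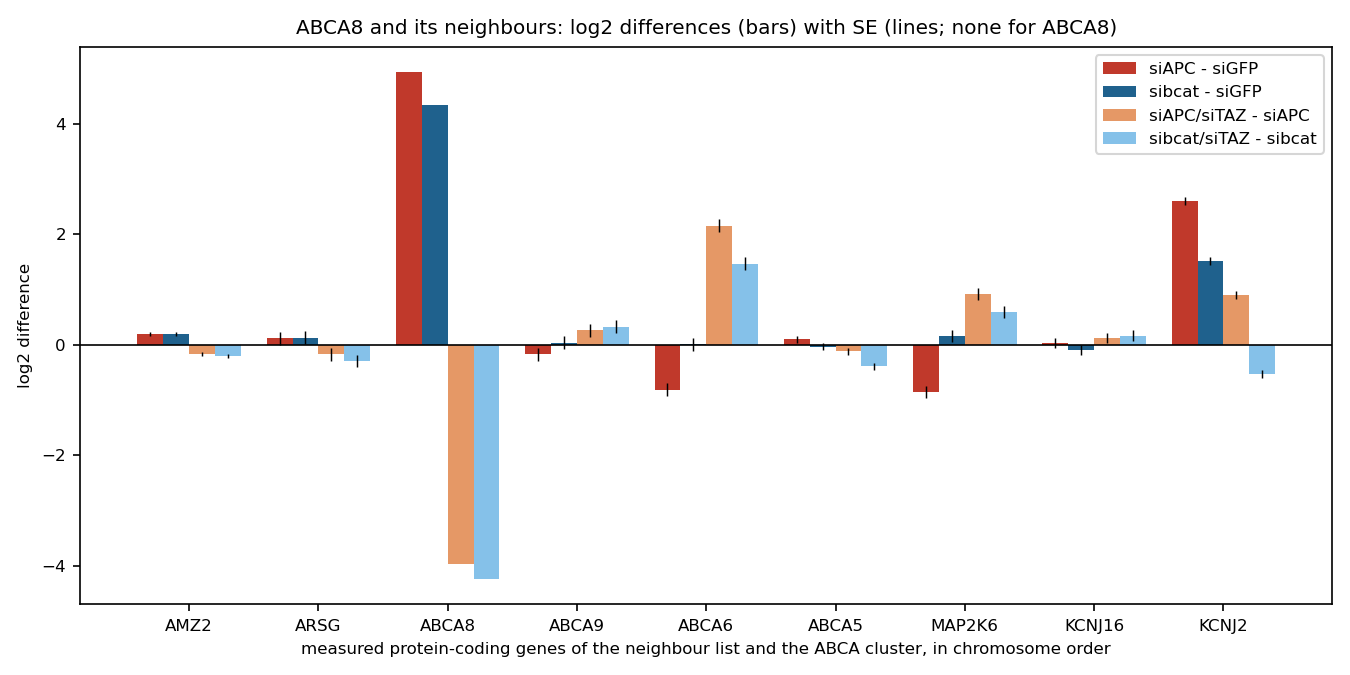
Log2 differences (y axis) of ABCA8, the measured members of its cluster and the measured genes of the neighbour list, in chromosome order (x axis), in 4 comparisons (colours), with the standard error as a line (none for ABCA8). FAM20A, WIPI1 and PRKAR1A, which lie between ABCA8 and the listed genes on that side, are not shown. ABCA8 is the only gene shown with bars near 4 and -4; ABCA6 is higher by 2.15 and 1.47 with TAZ siRNA.

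ABCA12, which loads ceramide lipids into the lamellar granules of keratinocytes, was called in all 4 comparisons. Replicates A to D read 8.57, 8.50, 8.51 and 8.51 in siGFP cells, 8.03, 7.98, 8.07 and 7.98 in siAPC cells and 7.61, 7.67, 7.63 and 7.33 in sibcat cells. They read 9.09, 9.16, 9.15 and 9.19 in siAPC/siTAZ cells and 8.24, 8.16, 8.19 and 8.09 in sibcat/siTAZ cells. No group of arrays overlapped another. ABCA12 fell by 0.51 (adjusted p = 4.98e-07) in siAPC cells and by 0.96 (adjusted p = 7.04e-11) in sibcat cells. It rose by 1.13 (2.19-fold, adjusted p = 2.89e-12) and 0.61 (1.53-fold, adjusted p = 6.14e-08) with TAZ siRNA, each with an SE of 0.058. Against siGFP it ended higher by 0.62 in siAPC/siTAZ cells and lower by 0.35 in sibcat/siTAZ cells, both called.

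**Figure D4:**
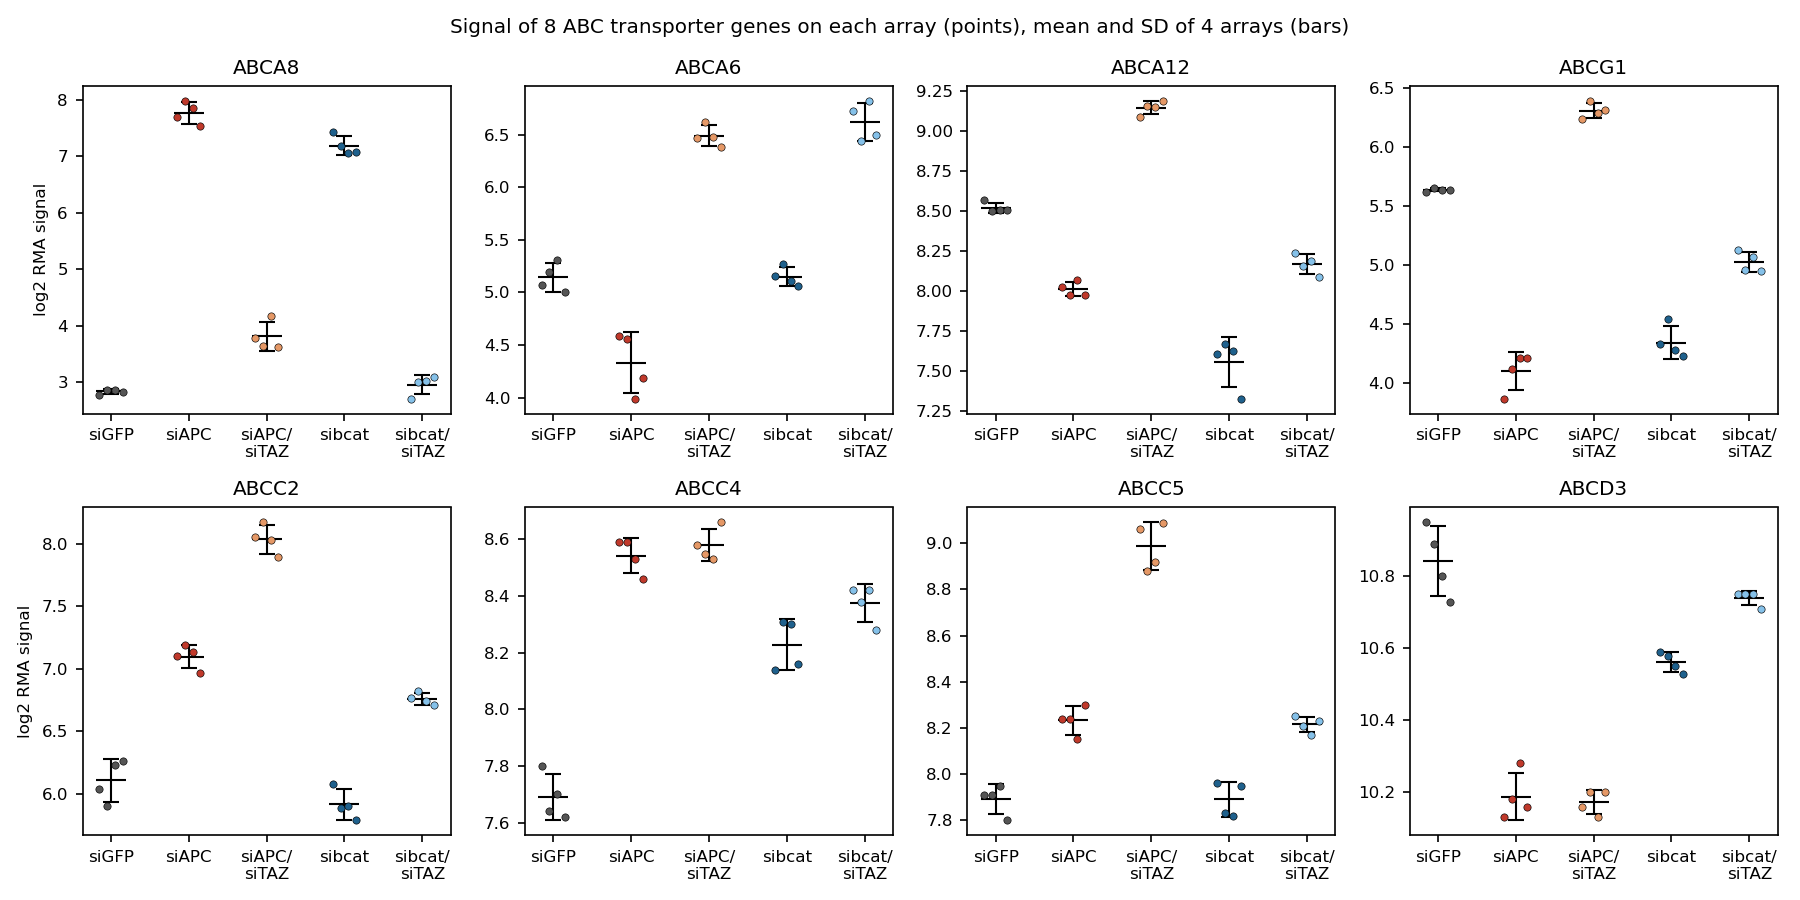
Log2 signal (y axis, separate scale per gene) of 8 ABC genes on each of the 20 arrays (points), by siRNA group (x axis), with the mean and SD of 4 arrays as bars. ABCA6, ABCA12 and ABCG1 are lower in siAPC cells and higher in siAPC/siTAZ cells than in the control, ABCA8 shows the reverse order of siAPC and siAPC/siTAZ, and ABCC2 and ABCC5 rise from siGFP to siAPC to siAPC/siTAZ.

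Smaller changes were found in other members of subfamily A. ABCA7, a phospholipid transporter, read 6.57, 6.64, 6.59 and 6.72 in siGFP cells, 6.43, 6.31, 6.15 and 6.20 in siAPC cells and 6.28, 6.39, 6.40 and 6.48 in sibcat cells, so that both depletions lay below the control. The falls were 0.36 (adjusted p = 0.000670) and 0.24 (adjusted p = 0.0156). The second lost its call without siGFP replicate D (-0.21) or sibcat replicate A (-0.21). ABCA3, which moves phospholipid into surfactant bodies of the lung, read 5.87, 6.20, 6.51 and 6.34 in sibcat cells and 5.73, 5.62, 5.86 and 5.65 in sibcat/siTAZ cells, a fall of 0.52 (SE 0.112, adjusted p = 0.00116) with no overlap. Its difference on adding TAZ siRNA to siAPC, -0.28, missed the threshold (adjusted p = 0.0508). ABCA2, an endosomal and lysosomal lipid transporter, was lower by 0.23 with TAZ siRNA in both backgrounds (adjusted p = 0.0244 and 0.0330). Those calls were lost without siAPC replicate A or D, siAPC/siTAZ replicate D, sibcat replicate C or D, or sibcat/siTAZ replicate A or D, when the differences were -0.15 to -0.21, and the other pair of ABCA2 probe sets gave -0.05 to 0.06, none called.

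ABCA1, the exporter of cholesterol and phospholipid to apolipoprotein A-I, gave a result that depended on the probe set. The one with the highest mean had group means of 3.97 to 4.10 and was called in none of the 8 comparisons, its differences in the 4 main ones running from -0.11 to 0.13. Without sibcat replicate A it passed in sibcat (-0.20) and in sibcat/siTAZ against sibcat (0.22). The probe sets 203505_at and 203504_s_at had lower means over the 20 arrays but changed, in a separate fit over all 54613 probe sets. In siAPC/siTAZ cells their means were 4.64 and 4.12, above that of the first probe set there (4.05). Against siGFP they were higher by 0.81 (adjusted p = 2.21e-06) and 0.58 (adjusted p = 0.000666) in siAPC/siTAZ cells. In sibcat/siTAZ cells they were lower by 0.75 (log2 difference -0.75, adjusted p = 7.87e-06) and 0.70 (-0.705, adjusted p = 9.83e-05). In sibcat cells they were lower than in siGFP cells by 0.47 and 0.57 (log2 differences -0.47 and -0.57, both called). The fourth probe set, 1570279_at, was called in none of the comparisons. Which of these probe sets follows ABCA1 RNA was not tested.

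ABCG1, which hands cholesterol to lipoprotein particles and is a classic target of the sterol-sensing LXR receptors, had the largest called change of the 40 members. Its arrays read 5.62, 5.65, 5.64 and 5.64 in siGFP cells, 3.87, 4.12, 4.21 and 4.21 in siAPC cells and 4.33, 4.54, 4.28 and 4.23 in sibcat cells. They read 6.24, 6.39, 6.29 and 6.31 in siAPC/siTAZ cells and 5.13, 4.96, 5.07 and 4.95 in sibcat/siTAZ cells. The single depletions were lowest, siAPC/siTAZ lay above the control and sibcat/siTAZ between the control and sibcat, with no overlap among those levels. ABCG1 fell by 1.53 (2.90-fold, adjusted p = 1.06e-12) in siAPC cells and by 1.29 (2.45-fold, adjusted p = 2.42e-11) in sibcat cells, each with an SE of 0.073. It rose by 2.21 (4.61-fold, adjusted p = 3.76e-15) with TAZ siRNA in siAPC cells and by 0.68 (1.60-fold, adjusted p = 2.93e-07) in sibcat cells. The single depletions read below the median of all values, where array signal flattens, so these ratios may be understated.

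All 4 probe sets of ABCG1 fell in both single depletions and rose when TAZ siRNA was added to siAPC, by 0.88 to 2.21. On adding TAZ siRNA to sibcat, 211113_s_at rose as well (0.34, adjusted p = 0.0155), whereas 230913_at and 232081_at gave -0.06 (adjusted p = 0.824) and -0.04 (adjusted p = 0.861). The rise in that background was thus seen by 2 probe sets of 4.

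**Figure D5:**
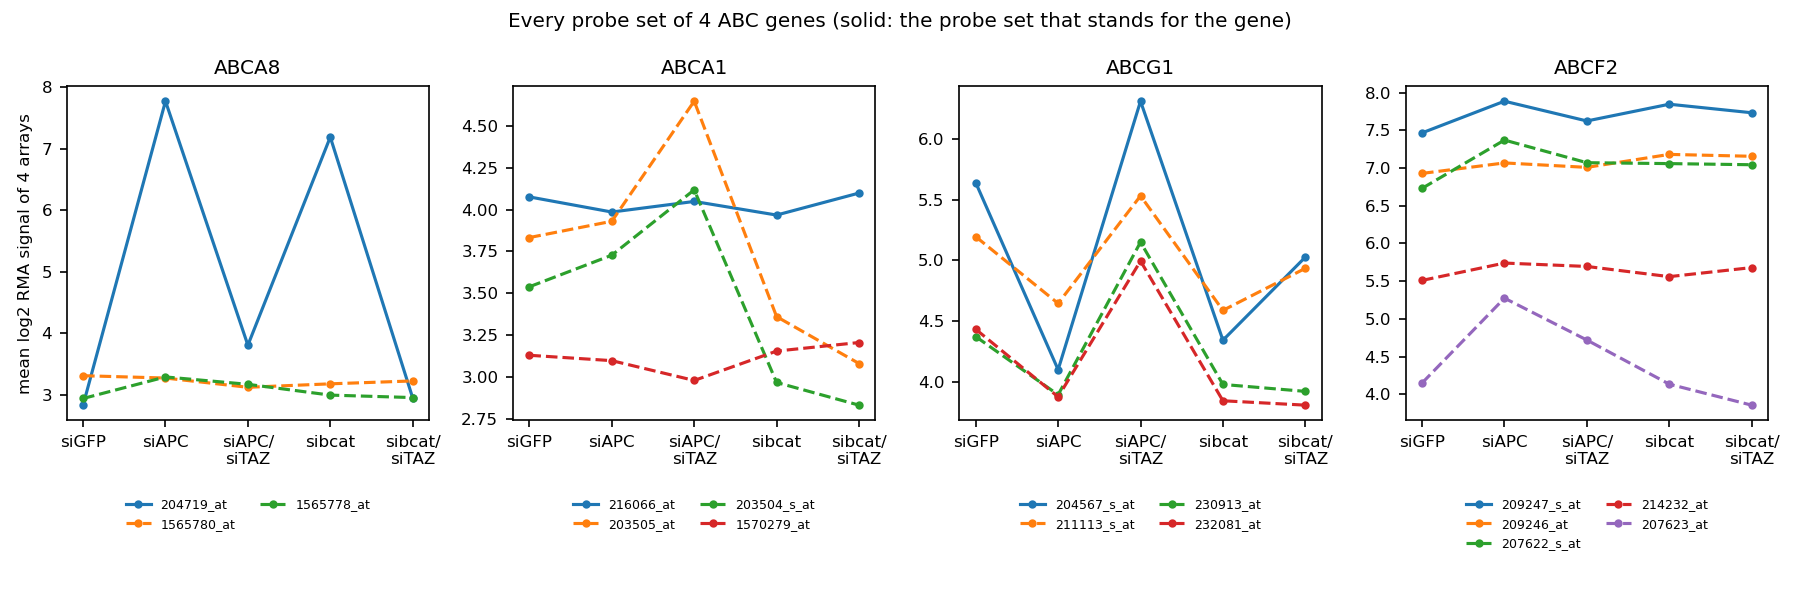
Mean log2 signal of 4 arrays (y axis) in the 5 siRNA groups (x axis) for every probe set of ABCA8, ABCA1, ABCG1 and ABCF2; the solid line is the probe set that stands for the gene. One of 3 probe sets of ABCA8 moves, a pair of ABCA1 probe sets peak in siAPC/siTAZ cells while the solid one stays near 4, and the 4 probe sets of ABCG1 share the fall in siAPC and the peak in siAPC/siTAZ.

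ABCG2, the breast cancer resistance protein that exports drugs and urate, stayed between 5.88 and 6.35 on the 20 arrays and was called in none of the 4 main comparisons. Its differences were -0.03 (95% interval -0.17 to 0.12) in siAPC, 0.14 in sibcat, 0.16 with TAZ siRNA in siAPC cells and -0.16 with it in sibcat cells. The TAZ siRNA differences passed without siAPC/siTAZ replicate B (0.19 in siAPC cells) and without sibcat replicate D or sibcat/siTAZ replicate B (both -0.20 in sibcat cells). ABCG4, ABCG5 and ABCG8 lay below the median of all values and were called in none of the 8 comparisons. Of the 12 measured of 13 sterol efflux and LXR partners listed beside ABCA1 and ABCG1, 5 were lower and 0 higher in siAPC cells, and 3 were higher and 3 lower in sibcat cells. With TAZ siRNA, 4 were higher and 2 lower in siAPC cells, and 3 higher and 1 lower in sibcat cells. RXRA, the partner receptor of LXR, had differences of -0.77, -0.47, 0.73 and 0.53 in these 4 comparisons, all called. MYLIP, an LXR-induced ligase that degrades the LDL receptor, had -0.48, -0.28, 0.81 and 0.58, all called. NR1H3, which encodes LXR alpha, fell by 0.35 in siAPC cells and rose by 0.46 in sibcat cells, and its differences with TAZ siRNA (-0.17 and 0.04) were not called. Other genes of the list varied. SREBF1 had means of 8.948 in siAPC, 9.018 in siAPC/siTAZ, 9.075 in sibcat and 9.102 in sibcat/siTAZ cells. In the same order APOE had 6.652, 6.552, 6.552 and 6.498, and LPCAT3 had 6.582, 6.838, 6.805 and 7.175. The activity of LXR was not tested.

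A pair of fibroblast markers changed in all 4 main comparisons, as did the members ABCA12, ABCB6, ABCE1 and ABCG1. Of these members ABCE1 rose where the pair fell and fell where the pair rose (0.22, 0.23, -0.50 and -0.16). ABCA6 was called in 3 of the comparisons and not in sibcat cells. COL1A1, a collagen gene, differed by -1.02, -0.80, 2.68 and 1.82, and DCN, the proteoglycan decorin, by -1.0, -0.47, 1.18 and 0.91 in the 4 comparisons, all called. Of the 5 fibroblast markers, 2 were lower in each single depletion, and with TAZ siRNA 3 were higher and 1 lower in siAPC cells and 2 were higher in sibcat cells. PDGFRB had means of 6.05 in siAPC and 5.62 in siAPC/siTAZ cells, and the group means of LUM lay between 2.75 and 2.875. The mean level of the 5 was 7.01 in siGFP, 6.64 in siAPC, 7.39 in siAPC/siTAZ, 6.76 in sibcat and 7.28 in sibcat/siTAZ cells, and 2 of them lay below the median of all values in every group. The 2 leukocyte and 3 adipocyte markers measured were below that median in every group. Of the 3 endothelial markers, PECAM1 was lower by 1.31 in siAPC cells. The part of other cell types in the ABC results was not tested.

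In subfamily C, which includes exporters of conjugated organic anions, 4 of 10 members were higher and 2 lower in siAPC cells. In sibcat cells 1 was higher and 1 lower, and with TAZ siRNA 4 were higher and 0 lower in each background. These are 6, 2, 4 and 4 of 10 called, beside 40.0%, 37.1%, 43.5% and 31.7% of all genes. ABCC2, which secretes conjugates into bile in the liver, changed most. Its arrays read 6.04, 5.90, 6.23 and 6.26 in siGFP cells, 7.10, 7.19, 7.13 and 6.97 in siAPC cells and 8.05, 8.17, 8.03 and 7.89 in siAPC/siTAZ cells. They read 6.08, 5.89, 5.90 and 5.79 in sibcat cells and 6.77, 6.82, 6.74 and 6.71 in sibcat/siTAZ cells. The signal stepped up without overlap from siGFP to siAPC to siAPC/siTAZ, whereas sibcat overlapped the control. ABCC2 rose by 0.99 (1.99-fold, adjusted p = 2.82e-09) in siAPC cells and by another 0.94 (adjusted p = 4.86e-09) with TAZ siRNA, to 1.93 (3.80-fold, adjusted p = 6.68e-14) above siGFP. With sibcat it differed by -0.19 (adjusted p = 0.0635), and this passed the threshold without siGFP replicate B (-0.26) or sibcat replicate A (-0.25). It rose by 0.84 (adjusted p = 4.46e-08) when TAZ siRNA was added to sibcat, each SE being 0.079.

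ABCC5, an exporter of cyclic nucleotides, rose in the siAPC arm in the same steps. Its arrays read 7.91, 7.91, 7.95 and 7.80 in siGFP cells, 8.24, 8.24, 8.15 and 8.30 in siAPC cells and 9.06, 8.88, 8.92 and 9.09 in siAPC/siTAZ cells. They read 7.96, 7.83, 7.82 and 7.95 in sibcat cells and 8.25, 8.21, 8.17 and 8.23 in sibcat/siTAZ cells. The sibcat arrays overlapped the control and the other 3 groups lay above it. The rises were 0.34 (adjusted p = 2.30e-05) in siAPC cells, 0.76 (1.69-fold, adjusted p = 3.08e-10) with TAZ siRNA added to siAPC and 0.33 (adjusted p = 5.74e-05) with it added to sibcat, and sibcat alone gave 0.00 (adjusted p = 0.979).

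ABCC4, which exports cyclic AMP and prostaglandins, rose in both single depletions. Replicates A to D read 7.80, 7.64, 7.70 and 7.62 in siGFP cells, 8.59, 8.59, 8.53 and 8.46 in siAPC cells and 8.14, 8.31, 8.30 and 8.16 in sibcat cells, 3 levels without overlap. The rises were 0.85 (1.81-fold, adjusted p = 7.43e-11) and 0.54 (1.45-fold, adjusted p = 8.79e-08), with an SE of 0.053. TAZ siRNA moved it by 0.04 in siAPC cells (95% interval -0.07 to 0.15, adjusted p = 0.626) and by 0.15 in sibcat cells (adjusted p = 0.0405). That last call was lost without sibcat replicate A or D or sibcat/siTAZ replicate A, B or C, at 0.12 to 0.15. A low-signal probe set of ABCC4, 243928_s_at, did not rise in the single depletions (-0.06 and -0.21, not called), and its other probe sets did.

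ABCC1, the exporter of glutathione conjugates known as MRP1, read 9.37, 9.39, 9.32 and 9.38 in siAPC cells and 9.68, 9.72, 9.59 and 9.69 in siAPC/siTAZ cells. The rise with TAZ siRNA was 0.30 (SE 0.042, adjusted p = 5.15e-06) there and 0.17 (adjusted p = 0.00329) in sibcat cells, without overlap. Its rise of 0.12 in siAPC cells (adjusted p = 0.0329) was lost without siAPC replicate A, B or D or siGFP replicate A or B, at 0.09 to 0.12. ABCC10, another exporter of lipophilic drugs, read 8.27, 8.28, 8.22 and 8.19 in siGFP cells, 7.99, 7.90, 7.94 and 7.91 in siAPC cells and 8.29, 8.39, 8.27 and 8.33 in siAPC/siTAZ cells. The siAPC arrays lay below both, with a fall of 0.30 (adjusted p = 1.52e-05) and a rise of 0.39 (adjusted p = 6.40e-07), and sibcat gave -0.03 (adjusted p = 0.704). ABCC3, a basolateral exporter of glucuronides, fell by 0.26 (adjusted p = 0.000687) in siAPC cells and by 0.17 (adjusted p = 0.0167) in sibcat cells. The second call was lost without siGFP replicate C or sibcat replicate B (-0.16), and the probe set 239217_x_at gave 0.09 in siAPC cells. ABCC8, ABCC9, ABCC11 and ABCC12, all below the median of all values, were called in none of the 8 comparisons.

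Among the 17 measured of 18 drug-sensing, glutathione and conjugation genes listed beside the drug exporters, 3 were higher and 7 lower in each single depletion. With TAZ siRNA 9 were higher and 3 lower in siAPC cells and 8 higher and 2 lower in sibcat cells. CYP1B1, a P450 enzyme that oxidises estrogens and polycyclic hydrocarbons, rose by 1.75 and 0.87 with TAZ siRNA, and AHR, the receptor that induces it, by 1.10 and 0.49. CYP1A1, also in the list, did not rise. Its means were 5.312 in siAPC, 5.228 in siAPC/siTAZ, 5.582 in sibcat and 5.432 in sibcat/siTAZ cells. The activity of AHR was not tested. GSR, which regenerates reduced glutathione, fell by 0.90 in siAPC cells (adjusted p = 5.43e-11) and by 0.26 in sibcat cells (adjusted p = 0.000749). Of the 2 potassium channel partners of ABCC8 and ABCC9, KCNJ8 was lower by 0.33 with TAZ siRNA in sibcat cells (adjusted p = 0.0284), a call lost without sibcat replicate A or C or sibcat/siTAZ replicate A, B or C (-0.27 to -0.32).

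In subfamily B the drug pump ABCB1, or P-glycoprotein, read between 2.98 and 3.89 on the 20 arrays and was called in none of the 8 comparisons. Its differences in the main 4 ran from -0.12 to 0.19, with an SE of 0.162, the widest of the family. ABCB6, a porphyrin transporter of mitochondria and other membranes, was called in all 4. It read 7.28, 7.40, 7.38 and 7.49 in siGFP cells, 7.05, 6.99, 6.91 and 6.90 in siAPC cells and 7.04, 6.76, 7.01 and 6.95 in sibcat cells. With TAZ siRNA it read 7.49, 7.43, 7.39 and 7.44 in siAPC cells and 7.39, 7.29, 7.26 and 7.27 in sibcat cells. Both single depletions lay below the control, and both combinations overlapped it. The falls were 0.42 (adjusted p = 5.61e-06) and 0.45 (adjusted p = 3.59e-06) and the rises with TAZ siRNA 0.47 (adjusted p = 1.09e-06) and 0.36 (adjusted p = 5.58e-05), with an SE of 0.059. The other probe set of ABCB6 showed none of these 4 (0.11, -0.01, -0.11 and -0.26, none called).

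ABCB10, a transporter of the inner mitochondrial membrane that serves haem synthesis, differed between the depletions. Its arrays read 9.0, 9.04, 8.89 and 8.99 in siGFP cells, 9.40, 9.39, 9.28 and 9.23 in sibcat cells and 9.22, 9.30, 9.21 and 9.33 in sibcat/siTAZ cells. They read 8.81, 8.80, 8.89 and 8.84 in siAPC cells and 8.10, 8.33, 8.29 and 8.30 in siAPC/siTAZ cells. The sibcat groups lay above the control and siAPC/siTAZ below all others. ABCB10 rose by 0.34 (adjusted p = 3.02e-05) in sibcat cells and fell by 0.58 (1.5-fold, adjusted p = 2.20e-08) when TAZ siRNA was added to siAPC, against -0.06 (adjusted p = 0.471) when it was added to sibcat. In siAPC cells alone it was lower by 0.14 (adjusted p = 0.0385), with arrays that touched the control, a call lost without siAPC or siGFP replicate A, B or D (-0.12 to -0.15).

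ABCB9, a lysosomal peptide transporter, read 5.66, 5.64, 5.70 and 5.74 in siGFP cells, 5.55, 5.43, 5.36 and 5.34 in siAPC cells and 5.97, 5.95, 6.0 and 6.33 in sibcat cells. The siAPC arrays lay below and the sibcat arrays above the control, with a fall of 0.27 (adjusted p = 0.00760) and a rise of 0.38 (adjusted p = 0.000418). On adding TAZ siRNA to siAPC it was higher by 0.20 (adjusted p = 0.0404), lost without replicate B, C or D of either group (0.17 to 0.21). Its other probe sets had no called difference in these comparisons. Of the 6 measured of 7 iron-sulfur and haem genes listed beside the mitochondrial members, 1 was higher and 4 lower in siAPC cells and 2 were higher and 0 lower in sibcat cells. FECH, the last enzyme of haem synthesis, fell by 0.42 in siAPC cells and rose by 0.41 in sibcat cells, both called. ISCU, the iron-sulfur scaffold, fell by 0.14 in siAPC cells and rose by 0.35 with TAZ siRNA there, both called. TAP1 and TAP2, which carry the ABC fold under other symbols and load peptides for antigen presentation, rose with TAZ siRNA by 0.67 and 0.34 in siAPC cells and by 0.63 and 0.32 in sibcat cells, all called.

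In subfamily D, ABCD3, which imports branched-chain acyl-CoA and bile acid precursors into peroxisomes, fell most. Its arrays read 10.95, 10.89, 10.80 and 10.73 in siGFP cells, 10.13, 10.18, 10.28 and 10.16 in siAPC cells and 10.16, 10.20, 10.13 and 10.20 in siAPC/siTAZ cells. They read 10.59, 10.58, 10.55 and 10.53 in sibcat cells and 10.75, 10.75, 10.75 and 10.71 in sibcat/siTAZ cells. The siAPC groups overlapped each other and lay below all other arrays, and sibcat lay between them and the control. The falls were 0.66 (1.57-fold, adjusted p = 2.90e-10) in siAPC cells and 0.28 (adjusted p = 3.83e-05) in sibcat cells, with an SE of 0.045. TAZ siRNA left a difference of -0.01 in siAPC cells (95% interval -0.11 to 0.08, adjusted p = 0.828) and a rise of 0.18 in sibcat cells (adjusted p = 0.00398). The second probe set of ABCD3 fell by 1.11 in siAPC cells but was lower, not higher, with TAZ siRNA in sibcat cells (-0.18, adjusted p = 0.0355).

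ABCD4, which works with LMBRD1 to release cobalamin from lysosomes, was higher by 0.12 (adjusted p = 0.0261) with TAZ siRNA in siAPC cells, a call lost without siAPC replicate A or B or siAPC/siTAZ replicate A or C (0.09 to 0.12) and reversed in another probe set (-0.07, not called). LMBRD1 itself fell by 0.67 and 0.38 in the single depletions and rose by 0.47 and 0.15 with TAZ siRNA, all called. Of the 7 measured of 8 peroxisomal and cobalamin partners, 2 were higher and 2 lower in siAPC cells, 4 higher and 2 lower in sibcat cells, and with TAZ siRNA 3 were higher and 1 lower in siAPC cells and 3 higher and 0 lower in sibcat cells. PEX19, the import receptor for peroxisomal membrane proteins, rose by 0.45 in sibcat cells (adjusted p = 2.38e-07). ACSL1, a fatty acyl-CoA synthetase, fell by 0.57 there (adjusted p = 8.94e-08). ABCD2 was near the lowest signals of the array and was not called.

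Of the 4 members without membrane domains, ABCE1, ABCF1 and ABCF2 rose in both single depletions. ABCE1, which splits ribosomes for recycling, read 10.31, 10.39, 10.41 and 10.41 in siGFP cells, 10.60, 10.57, 10.60 and 10.63 in siAPC cells and 10.65, 10.63, 10.58 and 10.58 in sibcat cells. It read 10.11, 10.16, 10.02 and 10.12 in siAPC/siTAZ cells and 10.41, 10.46, 10.47 and 10.47 in sibcat/siTAZ cells. Both single depletions lay above the control, siAPC/siTAZ lay below all other arrays, and sibcat/siTAZ touched the control. The rises were 0.22 (adjusted p = 6.34e-05) and 0.23 (adjusted p = 4.47e-05), and the falls with TAZ siRNA 0.50 (1.41-fold, adjusted p = 8.90e-10) in siAPC cells and 0.16 (adjusted p = 0.00238) in sibcat cells, with an SE of 0.037. The second probe set of ABCE1 gave 0.04 in siAPC cells and -0.01 for TAZ siRNA in sibcat cells, neither called, and passed in the other pair (0.30 and -0.33).

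ABCF2, a cytosolic member of the translation-linked subfamily F, read 7.50, 7.51, 7.40 and 7.45 in siGFP cells, 7.90, 7.87, 7.88 and 7.89 in siAPC cells and 7.76, 7.79, 7.76 and 8.07 in sibcat cells, both above the control. The rises were 0.42 (adjusted p = 4.31e-06) and 0.38 (adjusted p = 1.74e-05), and ABCF2 fell by 0.26 (adjusted p = 0.000695) with TAZ siRNA in siAPC cells. All 5 of its probe sets rose in siAPC cells, by 0.14 to 1.12, and 3 of them in sibcat cells. ABCF1, which binds initiation factor eIF2, rose by 0.12 (adjusted p = 0.00935) and 0.15 (adjusted p = 0.00190) in the single depletions and by 0.15 (adjusted p = 0.00231) with TAZ siRNA in sibcat cells. ABCF3 fell by 0.34 (SE 0.071, adjusted p = 0.000554) with TAZ siRNA in siAPC cells. In sibcat cells it was higher by 0.21 (adjusted p = 0.0208), lost without siGFP replicate B (0.19) or sibcat replicate D (0.14).

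The 10 ribosome recycling and translation genes listed beside ABCE1 and subfamily F were 8 higher and 1 lower in siAPC cells and 7 higher and 0 lower in sibcat cells. With TAZ siRNA 0 were higher and 9 lower in siAPC cells, and 0 were higher and 1 lower in sibcat cells. Of all genes, 21.3% were higher in siAPC cells, 21.4% were higher in sibcat cells, and 22.8% and 13.7% were lower with TAZ siRNA in the respective backgrounds. All 10 genes read above the median of all values in every group, where calls were more frequent. Of all genes at or above that median, 56.9%, 53.5%, 61.5% and 45.8% were called in either direction in these 4 comparisons. Of the 10 listed genes, 9, 7, 9 and 1 were. PELO, which with HBS1L opens stalled ribosomes for ABCE1, rose by 1.04 (adjusted p = 5.98e-15) in siAPC cells and by 0.19 (adjusted p = 0.000246) in sibcat cells. EIF2S1 and EIF2S2, the alpha and beta subunits of initiation factor eIF2, rose by 0.32 and 0.31 in siAPC cells and fell by 0.48 and 0.47 with TAZ siRNA there, all called. In sibcat cells the TAZ siRNA difference was -0.01 (adjusted p = 0.862) for EIF2S1 and -0.23 (adjusted p = 4.32e-05) for EIF2S2.

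The effect of TAZ siRNA in the siAPC background was set against that in the sibcat background in 1 test, which uses no array on both sides. As given above, 11 members passed, 7 with a higher and 4 with a lower difference in the siAPC background, beside 27.7% of all genes. ABCG1 rose more in siAPC cells by 1.52 (SE 0.103, adjusted p = 1.02e-09), ABCA6 by 0.69 (adjusted p = 0.00302), ABCA12 by 0.52 (adjusted p = 5.47e-05) and ABCC5 by 0.43 (adjusted p = 0.000155). ABCB10 and ABCE1 fell more in siAPC cells, by differences of -0.52 (adjusted p = 2.54e-05) and -0.34 (adjusted p = 4.68e-05). ABCC10 (0.28, adjusted p = 0.00269) and ABCG2 (0.32, adjusted p = 0.0178) differed as well, ABCG2 without a called change in either background. For ABCC2 the difference was 0.09 (95% interval -0.14 to 0.33, adjusted p = 0.625) and for ABCB6 0.11 (adjusted p = 0.378), neither called. In this test the other pair of ABCA1 probe sets gave 0.99 (adjusted p = 4.97e-05) and 0.53 (adjusted p = 0.0399), where the probe set with the highest mean gave -0.07 (adjusted p = 0.754).

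Directly compared, siAPC and sibcat cells differed in 10 members, 4 higher and 6 lower in siAPC cells. ABCC2 was higher in siAPC cells by 1.18 (2.27-fold, adjusted p = 3.61e-10), ABCA12 by 0.46 (adjusted p = 2.84e-06), ABCC5 by 0.34 (adjusted p = 2.74e-05) and ABCC4 by 0.32 (adjusted p = 7.90e-05). ABCA6 was lower there (-0.82, adjusted p = 9.74e-06), as were ABCB9 (-0.64, adjusted p = 9.71e-07), ABCB10 (-0.49, adjusted p = 4.17e-07), ABCD3 (-0.38, adjusted p = 1.19e-06) and ABCC10 (-0.28, adjusted p = 5.91e-05). ABCG1 was lower by 0.24 (log2 difference -0.24, adjusted p = 0.0128), a call lost without siAPC replicate A (-0.16) or sibcat replicate B (-0.18) and not shared by its other probe sets.

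In all, 25 of the 40 tested members (62.5%) were called in at least 1 of the 8 comparisons, beside 68.4% of all genes. The other 15 were called in none: ABCA1, ABCA4, ABCB1, ABCB4, ABCB5, ABCB8, ABCB11, ABCC8, ABCC9, ABCC11, ABCC12, ABCD2, ABCG4, ABCG5 and ABCG8. That holds for the probe set that stands for each gene. Other probe sets of ABCA1 had called differences, as given above. Of these 15, 13 had a mean below the median of all values, and their differences in the 4 main comparisons ran from -0.24 to 0.19. At that signal a change of the RNA may not be detectable with 4 arrays a group. Probe sets of near-identical members may also share signal.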

How the data were processed

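Affymetrix HG-U133 Plus 2.0 arrays measured the RNA of 20 MII samples. The authors deposited log2 signals made with RMA, per the submitters' processing notes, whose version is not stated in the sources used here. RMA equalises the distributions of the arrays, and low signals hold nonspecific hybridisation, which can shrink differences. The table held 54675 probe sets. After 62 control probe sets were left out, 41091 carried 1 gene symbol in the platform annotation, 1801 several and 11721 were not named, and 41037 matched the RefSeq gene table by gene ID. One probe set a gene (highest mean over the 20 arrays) gave 19775 genes, with no filter on low values.

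Group means were fitted to all 20 arrays with limma 3.58.1 in R 4.3.3 (15 residual degrees of freedom, prior 3.39), followed by empirical Bayes moderation and two-sided contrasts, with Benjamini-Hochberg adjustment over all genes in each of 8 comparisons. Every adjusted p in the text is from limma. The fit was tested on simulated data. ABCA8 was left out of the counts of calls and of the tests between groups.

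Named members were ABCA8, then ABCA1, ABCB1, ABCC1 and ABCG2, and in each main comparison and the interaction up to 4 called members of a subfamily with the largest differences and no overlap between arrays; up to 3 genes stand for each partner list. The members, lists and rules were chosen with earlier results of these data known. Alternatives were a replicate block, the mean of all probe sets or each other probe set, centring of each array on its median, a filter at the median of all values, trended robust moderation, only the arrays compared, and leaving out each array. The replicate letters were taken not to pair the arrays. Promoter sequences are from RefSeq (GRCh38.p14).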

Additional observations from a re-analysis of the deposited data

Results flagged for a closer look

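In 8 of 130 groups of 4 arrays looked at for the 26 named members, ABCA8 among them, 1 array lay far from the other 3 by Dixon's criterion, where chance alone gives about 1 in 20. ABCA1 read 4.19 in siAPC replicate D, beside 3.89 to 3.94 on the other arrays. ABCA7 read 6.11 in sibcat/siTAZ replicate D, beside 6.35 to 6.38. ABCA12 read 8.57 in siGFP replicate A, beside 8.50 to 8.51. ABCB9 read 6.33 in sibcat replicate D, beside 5.95 to 6.0. ABCC3 read 9.43 in siAPC replicate C, beside 9.59 to 9.62. ABCD3 read 10.71 in sibcat/siTAZ replicate D, beside 10.75 on each of the others. ABCE1 read 10.41 in sibcat/siTAZ replicate A, beside 10.46 to 10.47. ABCF2 read 8.07 in sibcat replicate D, beside 7.76 to 7.79.

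The effect of TAZ siRNA differed between the siAPC and sibcat backgrounds, by limma's interaction contrast, in 11 members. The difference (effect in siAPC cells minus effect in sibcat cells, log2) was 1.52 for ABCG1 (adjusted p = 1.02e-09), 0.69 for ABCA6 (adjusted p = 0.00302), 0.52 for ABCA12 (adjusted p = 5.47e-05) and 0.43 for ABCC5 (adjusted p = 0.000155). It was 0.32 for ABCG2 (adjusted p = 0.0178), 0.28 for ABCC10 (adjusted p = 0.00269) and 0.28 for ABCA5 (adjusted p = 0.0311). It was -0.52 for ABCB10 (adjusted p = 2.54e-05), -0.34 for ABCE1 (adjusted p = 4.68e-05), -0.31 for ABCF3 (adjusted p = 0.0237) and -0.19 for ABCD3 (adjusted p = 0.0278). Leaving out 1 array ended the call of ABCA5 for 9 arrays (0.23 to 0.27), of ABCF3 for 5 arrays (-0.27 to -0.29) and of ABCD3 for siAPC replicate C or siAPC/siTAZ replicate C (-0.16 to -0.18). For ABCA5 these were siAPC replicates A and D, siAPC/siTAZ replicates A, B and C, and replicates A and B of sibcat and of sibcat/siTAZ; for ABCF3, siAPC/siTAZ replicate A and replicates A and B of sibcat and of sibcat/siTAZ.

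Signals also changed on probe sets that stand for no member. The pseudogene ABCA11P was higher by 0.30 (adjusted p = 0.000989) in siAPC cells and by 0.34 (log2 difference 0.345, adjusted p = 0.000304) in sibcat cells than in siGFP cells. A probe set shared by ABCB4 and ABCB1 was lower in siAPC/siTAZ than in siAPC cells (-0.39, adjusted p = 0.0152).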

How the results depend on the processing

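The counts of called members stayed within 1.5 times their values in the 8 comparisons under every alternative. Leaving out 1 array gave 15 to 17 (siAPC against siGFP), 12 to 15 (sibcat against siGFP), 13 to 15 (TAZ siRNA in siAPC), 13 to 15 (TAZ siRNA in sibcat), 16 to 18 and 17 to 19 (siAPC/siTAZ and sibcat/siTAZ against siGFP), 9 to 12 (siAPC against sibcat) and 9 to 14 (difference of TAZ siRNA effects). With the replicate block the counts were 17, 13, 16, 15, 18, 19, 10 and 11, but same-letter residuals had a median correlation of 0.03, with 8 of 40 pairs over 0.1 and 9 of 20 arrays closest to their own letter, so the letters were not taken to pair the arrays; whether same-letter arrays shared a day is not stated in the labels. The mean of all probe sets gave 17, 15, 18, 10, 20, 24, 12 and 11. Leaving out 1 array ended 18 calls of the named members, given beside them except those of ABCA3 in sibcat/siTAZ (without siGFP replicate A or C, -0.29 to -0.30), ABCF2 in siAPC/siTAZ (4 arrays, 0.14 to 0.15) and ABCF3 in siAPC/siTAZ (2 arrays, -0.17 to -0.18) and sibcat/siTAZ (5 arrays, 0.16 to 0.19), all against siGFP. ABCA9 and ABCA13 had calls too but were not among the named members, so their calls were not followed in this way. A turn of sign was counted only for named genes, and only where the main or the alternative fit gave a call. With the mean of all probe sets 7 differences turned sign by this rule: ABCA1 gave 0.30 (siAPC/siTAZ against siGFP), -0.34 (sibcat/siTAZ against siGFP) and 0.32 (difference of TAZ siRNA effects), PELO 0.023 (TAZ siRNA in siAPC) and -0.011 (sibcat/siTAZ against siGFP), EIF2S1 -0.10 (siAPC against sibcat) and RXRA -0.012 (difference of TAZ siRNA effects). On other probe sets of named members 28 did by the same rule. In siAPC against siGFP these were ABCB6 0.11, ABCC3 0.088 and ABCC4 -0.06. In sibcat against siGFP they were ABCB9 -0.01, ABCC10 0.18, ABCC4 -0.21 and ABCF2 -0.015. With TAZ siRNA in siAPC they were ABCA2 0.025, ABCB6 -0.11, ABCB9 -0.005 and ABCD4 -0.073. With TAZ siRNA in sibcat they were ABCA2 0.013 and 0.055, ABCB6 -0.26, ABCD3 -0.18 and ABCG1 -0.057 and -0.035. In siAPC/siTAZ against siGFP they were ABCA1 0.81 and 0.58 and ABCC3 0.19; in sibcat/siTAZ against siGFP, ABCA1 -0.75 and -0.70 and ABCF2 -0.29. In siAPC against sibcat they were ABCC3 0.45 and ABCG1 0.058 and 0.033, and in the difference of TAZ siRNA effects ABCA1 0.99 and 0.53. The cause of these turns was not tested. Low signal over background limits what could be seen of the 17 members with a mean below the median of all values. These include ABCA8 and ABCG1, so such a mean did not hide every difference. RMA values carry no detection call here.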
